A study of Mus musculus with 9 samples.

Results

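Sirtuins are the NAD-dependent lysine deacylases, and the mouse family has 7 genes, Sirt1 to Sirt7. The members were taken by symbol, matched to the gene ID of the deposited files, and all 7 were present among the 16873 genes. Expression was measured by bulk RNA-seq of heart in 3 groups of 3 libraries each. The first group came from Sting-/- mice, which lack the innate immune adaptor STING, given doxorubicin (Sting-/- DOX). The second came from wild-type mice given doxorubicin (WT DOX), and the third from wild-type mice given saline (WT saline). Doxorubicin is an anthracycline chemotherapy drug with known cardiac toxicity, and the study's design text describes low-dose treatment that produces a chronic cardiotoxicity. The labels give no dose, schedule, age, sex or strain, and nothing in them ties each library to its own animal, so the p-values measure only the spread between libraries, which may be technical. No Sting-/- saline libraries were analysed here. What the genotype does without the drug and what it does to the response cannot be told apart. The series title links the cGAS-STING pathway in endothelial cells to NAD decline in the drug-treated heart, which makes the enzymes that use NAD as a co-substrate of interest.

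Sirtuins remove acetyl and other acyl groups from lysines and split NAD to nicotinamide with each turnover, so their activity depends on NAD supply as well as on their amount. SIRT1, SIRT6 and SIRT7 are mainly nuclear, where they act on transcription factors, chromatin and, for SIRT7, the nucleolus. SIRT2 is mainly cytosolic, and SIRT3, SIRT4 and SIRT5 reside in mitochondria, which fill much of the cardiomyocyte. SIRT3 is the main mitochondrial deacetylase and SIRT5 removes succinyl, malonyl and glutaryl groups.

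Promoter sequences are shown first as a description of the upstream regions, and their part in the expression differences was not tested. All 7 sirtuins matched the RefSeq promoter table (assembly GRCm38.p6) with 9 start sites, and the 250 bases before each start were searched on both strands for 9 short motifs. The ETS motif CCGGAAG, found in 6.91% of the 32851 promoter windows of the table, was held by the Sirt3 and Sirt6 stretches shown here. The E-box CACGTG, found in 6.02% of windows, occurred at 2 places for Sirt1 and for no other sirtuin. The NRF1 motif, GCGCA followed by its reverse complement TGCGC and found in 0.782% of windows, was present for Sirt6 alone. The half-site AAGGTCA of the estrogen-related receptors, found in 4.08% of windows, was present for Sirt5 alone. Each line below gives 30 bases around a motif (104 for Sirt5) on the strand of the gene, 5′ to 3′, with the motif or its reverse complement in capitals; no 2 of these motifs overlap.
Sirt1, chr10:63339133-63339162, minus strand: gcggcgcccggcCACGTGacccggcgtgtt
Sirt1, chr10:63339061-63339090, minus strand: ggaggggcgggtCACGTGacggggtttaaa
Sirt3, chr7:140882376-140882405, minus strand: gtgctcgctcaCTTCCGGcaccgcgggcgc
Sirt6, chr10:81627690-81627719, minus strand: catcaggaggGCGCATGCGCtctggaaaga
Sirt6, chr10:81627583-81627612, minus strand: tcccttcaccaCTTCCGGcggaagcggcct
Sirt5, chr13:43365285-43365388, plus strand: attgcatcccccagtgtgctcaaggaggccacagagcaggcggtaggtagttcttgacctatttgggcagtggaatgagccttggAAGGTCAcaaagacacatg

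The Sirt1 motifs ended 110 and 38 bases before its start, and the Sirt1 window was the richest of the 9 in CpG, with 39 CpG and 79.2% GC against medians of 6 and 52.4% over all windows. The common GC box GGGCGG (32.7% of windows) occurred in the windows of all sirtuins but Sirt4, and CCAAT (33.8%) in those of Sirt2, Sirt3 and Sirt5. No sirtuin window held the letters searched for NF-kB (GGGA and TTTCC with any 1 base between, 0.356% of windows), for the interferon-stimulated response element (GAAA and GAAA with any 2 bases between, 2.98%) or for FOXO factors (TGTTTAC, 3.17%). A motif match is a description of the sequence and not a measured binding site.

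FPKM divides a gene's fragments by its transcript length and by the library's total, so levels can be set side by side between genes. Sting1, the deleted gene, was at 0.06, 0 and 0 FPKM in the Sting-/- DOX libraries, against 17.49, 17.96 and 17.76 FPKM in WT DOX and 5.10, 5.43 and 5.93 FPKM in WT saline. The depth estimated from the steps between low values was about 7850000 to 8050000 fragments in Sting-/- DOX, 12500000 to 13000000 in WT DOX and 10900000 to 11150000 in WT saline. Sirt1, the lowest member, then rests on about 189 to 213 fragments a library in Sting-/- DOX, 229 to 235 in WT DOX and 199 to 241 in WT saline. The groups differed in makeup. The 16 cardiomyocyte markers, none of them at 0, summed to 9922 to 10572 FPKM in Sting-/- DOX, 44538 to 46164 FPKM in WT DOX and 68515 to 71099 FPKM in WT saline. In bulk heart RNA, fewer cells of a type and less RNA per cell cannot be told apart. Of the 12485 genes tested, with a mean of at least 1 FPKM, the median log2 fold change was 0.25 for Sting-/- DOX against WT DOX, 0.49 for Sting-/- DOX against WT saline and 0.13 for WT DOX against WT saline. A gene that stayed level relative to the rest of the transcriptome therefore has a positive fold change.

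The 3 nuclear sirtuins were higher in Sting-/- DOX than in WT DOX hearts, though Sirt1 not after quantile normalization, and Sirt7 had the largest fold change of the 3. Tests used limma on log2(FPKM + 1), fitted on all 9 libraries, and fold changes are on that scale with their standard errors (SE). Sirt7, a nucleolar deacetylase that promotes ribosomal DNA transcription, stood at 28.85, 32.01 and 32.38 FPKM in Sting-/- DOX, at 13.32, 12.64 and 11.45 FPKM in WT DOX and at 6.91, 6.96 and 7.54 FPKM in WT saline. Every Sting-/- DOX library lay above every WT DOX library, and every WT DOX library above every saline library. For Sting-/- DOX the log2 fold change was 1.25 (SE 0.066, limma adjusted p = 3.2e-09) against WT DOX and 1.98 (SE 0.066, limma adjusted p = 2.68e-11) against WT saline. It was 0.73 (SE 0.066, limma adjusted p = 1.32e-06) for WT DOX against WT saline. The mean level was 4.35 times as high in Sting-/- DOX as in WT saline, and 92.1% of the tested genes had a smaller fold change in that comparison.

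Sirt6, a chromatin-bound deacetylase that represses glycolytic and NF-kB target genes, followed the same order at lower levels. It measured 12.48, 13.71 and 12.23 FPKM in Sting-/- DOX, 7.70, 8.28 and 7.71 FPKM in WT DOX and 5.55, 5.25 and 6.26 FPKM in WT saline. The 3 groups did not overlap. Its log2 fold change was 0.63 (SE 0.069, limma adjusted p = 3.13e-06) for Sting-/- DOX against WT DOX, 1.05 (SE 0.069, limma adjusted p = 1.83e-08) for Sting-/- DOX against WT saline and 0.41 (SE 0.069, limma adjusted p = 0.000222) for WT DOX against WT saline. With median-ratio scaling these were 0.41, 0.64 and 0.23, and with quantile normalization 0.38, 0.55 and 0.17, all called. As deposited, they placed Sirt6 above 69.5%, 70.8% and 73.1% of the tested genes in the 3 comparisons, in that order.

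Sirt1, the deacetylase of p53, FOXO factors and PGC-1alpha, was the lowest of the family in every group by its mean. It had 6.69, 6.85 and 6.16 FPKM in Sting-/- DOX, 4.51, 4.79 and 4.76 FPKM in WT DOX and 5.66, 4.96 and 4.67 FPKM in WT saline. The Sting-/- DOX libraries lay above all others, while the ranges of WT DOX and WT saline overlapped. In Sting-/- DOX against WT DOX, the log2 fold change was 0.41 (SE 0.072, limma adjusted p = 0.000196), and 0.20 with median-ratio scaling, also called, but it did not pass with quantile normalization (0.13, limma adjusted p = 0.113). Between WT DOX and WT saline it was -0.10, with a 95% interval of -0.26 to 0.06 (limma adjusted p = 0.252). Against WT saline, Sting-/- DOX was higher by 0.31 (SE 0.072, limma adjusted p = 0.00135), which is 0.18 below the median of all tested genes, and the direction turned to -0.077 when libraries were scaled by median ratios and to -0.22 after quantile normalization.

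**Figure D1:**
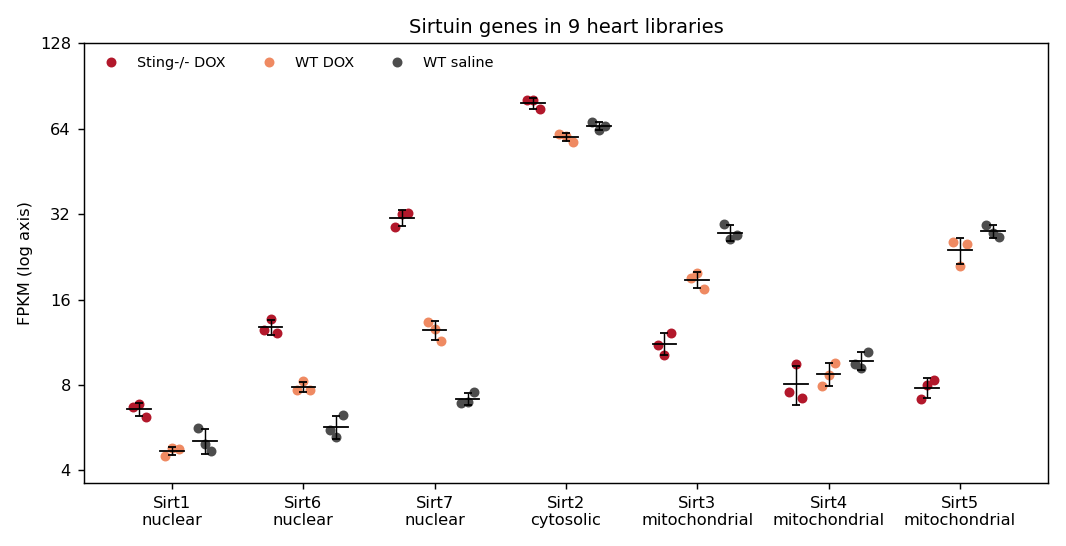
FPKM (log axis) of the 7 sirtuins in each library, with the mean and SD of 3 libraries, for Sting-/- DOX, WT DOX and WT saline from left to right. Sirt7 and Sirt6 step down and Sirt3 and Sirt5 step up across the groups in that order, while the Sirt4 ranges overlap.

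Sirt2, the cytosolic member, which deacetylates tubulin and metabolic enzymes, was the most abundant sirtuin in all 9 libraries. It had 80.99, 80.65 and 74.92 FPKM in Sting-/- DOX, 61.15, 60.45 and 57.6 FPKM in WT DOX and 67.78, 63.62 and 65.25 FPKM in WT saline. The Sting-/- DOX libraries were the highest and the WT DOX libraries the lowest, with no overlap. The log2 fold change was 0.39 (SE 0.044, limma adjusted p = 4.06e-06) for Sting-/- DOX against WT DOX, and 0.15 with median-ratio scaling, also called. For Sting-/- DOX against WT saline it was 0.26 (SE 0.044, limma adjusted p = 0.000122), a direction that turned to -0.19 with median-ratio scaling. After quantile normalization it was 0.06 and did not pass (limma adjusted p = 0.276). For WT DOX against WT saline it was -0.13 (SE 0.044, limma adjusted p = 0.0202), and -0.34 with median-ratio scaling and -0.31 after quantile normalization, both called. As deposited, that small difference lost its call without WT saline replicate 1 (-0.11, limma adjusted p = 0.0795) and without WT DOX replicate 3 (-0.11, limma adjusted p = 0.087).

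Of the mitochondrial sirtuins, Sirt5 and Sirt3 were lower in Sting-/- DOX than in either wild-type group, and the Sirt4 ranges overlapped. Sirt5, the desuccinylase, had 7.13, 7.98 and 8.35 FPKM in Sting-/- DOX, 25.49, 21.06 and 25.18 FPKM in WT DOX and 29.41, 27.53 and 26.59 FPKM in WT saline. The Sting-/- DOX libraries stood far below the rest, and the highest WT DOX value lay just under the lowest saline value. Sting-/- DOX against WT DOX gave a log2 fold change of -1.50 (SE 0.078, limma adjusted p = 2.77e-09), where the mean level was 0.327 times that of WT DOX and only 5.37% of tested genes had a lower fold change. The value was -1.71 (SE 0.078, limma adjusted p = 4.75e-10) for Sting-/- DOX against WT saline. Between WT DOX and WT saline it was -0.22 (SE 0.078, limma adjusted p = 0.0282), and -0.42 with median-ratio scaling and -0.39 after quantile normalization, both called. The call as deposited was lost without WT saline replicate 1 (-0.18, limma adjusted p = 0.101), without WT saline replicate 2 (-0.22, limma adjusted p = 0.0523) and without WT DOX replicate 2 (-0.13, limma adjusted p = 0.123).

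Sirt3, the main mitochondrial deacetylase, was lower in both drug-treated groups. It had 11.11, 10.23 and 12.25 FPKM in Sting-/- DOX, 19.07, 19.84 and 17.41 FPKM in WT DOX and 29.66, 26.12 and 26.96 FPKM in WT saline. The 3 groups did not overlap, and WT DOX lay between the other 2. The log2 fold change was -0.70 (SE 0.073, limma adjusted p = 1.91e-06) for Sting-/- DOX against WT DOX, -1.23 (SE 0.073, limma adjusted p = 5.95e-09) for Sting-/- DOX against WT saline and -0.53 (SE 0.073, limma adjusted p = 4.26e-05) for WT DOX against WT saline. In the last of these, 5.33% of tested genes had a lower fold change than Sirt3, against 18.8% for Sirt5.

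Sirt4, a mitochondrial ADP-ribosyltransferase and lipoamidase that restrains glutamate dehydrogenase and pyruvate dehydrogenase, had 7.53, 9.51 and 7.18 FPKM in Sting-/- DOX, 7.95, 8.68 and 9.57 FPKM in WT DOX and 9.51, 9.16 and 10.5 FPKM in WT saline. The ranges of each pair of groups overlapped, and Sting-/- DOX replicate 2 lay within the saline range. The log2 fold change was -0.11 with a 95% interval of -0.32 to 0.10 (limma adjusted p = 0.315) for Sting-/- DOX against WT DOX and -0.14 with an interval of -0.35 to 0.07 (limma adjusted p = 0.216) for WT DOX against WT saline. Without Sting-/- DOX replicate 2, the comparison of Sting-/- DOX with WT DOX passed at -0.22 (limma adjusted p = 0.0305). Against WT saline, Sting-/- DOX was at -0.25 (SE 0.096, limma adjusted p = 0.0289), but the exact permutation p of the two-sided test was 0.3, and the call was lost without WT saline replicate 3 (-0.20), Sting-/- DOX replicate 1 (-0.21) or Sting-/- DOX replicate 3 (-0.18). It was -0.66 with median-ratio scaling and -0.75 after quantile normalization, both called. With 3 libraries against 3, the smallest exact permutation p is 0.1, which was reached in all comparisons of the 7 genes without overlap.

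Counted over the family, 4 of 7 sirtuins were higher and 2 lower in Sting-/- DOX than in WT DOX, where 54.1% of the tested genes were called higher and 29.7% lower (83.8% in either direction). Against WT saline, Sting-/- DOX had 4 sirtuins higher and 3 lower, beside 63.0% and 25.9% of tested genes (88.9% in either direction). WT DOX had 2 higher and 3 lower than WT saline, beside 45.3% and 21.5% of tested genes (66.7% in either direction). With so many genes called, these counts do not set the family apart. The ranges of 2 groups did not overlap for 6 of 7 sirtuins in Sting-/- DOX against WT DOX (84.8% of tested genes), for 6 of 7 in Sting-/- DOX against WT saline (89.2%) and for 5 of 7 in WT DOX against WT saline (71.7%). Each pair of comparisons shares 1 group of libraries, so the comparisons are not separate evidence.

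**Figure D2:**
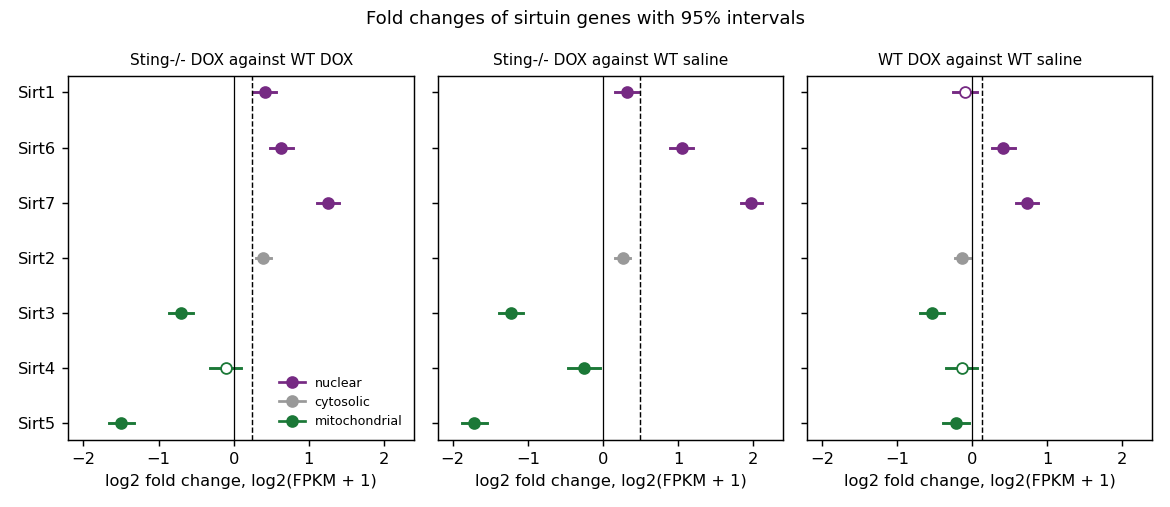
Log2 fold change of each sirtuin, on the log2(FPKM + 1) scale, with its 95% interval in the 3 comparisons; filled points have a limma adjusted p under 0.05 and the dashed line is the median of all tested genes. Sirt7 and Sirt6 lie right of that median in each comparison, and Sirt3, Sirt4 and Sirt5 lie left of it.

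The order of levels within the family differed between groups. In Sting-/- DOX it was Sirt2, Sirt7, Sirt6, Sirt3, Sirt4, Sirt5 and Sirt1 by mean FPKM, and the ranges of Sirt6 and Sirt3 and those of Sirt4 and Sirt5 overlapped. In WT DOX it was Sirt2, Sirt5, Sirt3, Sirt7, Sirt4, Sirt6 and Sirt1, with overlap between Sirt4 and Sirt6. In WT saline it was Sirt2, Sirt5, Sirt3, Sirt4, Sirt7, Sirt6 and Sirt1, with overlap between Sirt5 and Sirt3 and between Sirt6 and Sirt1. Sirt7 thus came next after Sirt2 in Sting-/- DOX, but below Sirt5, Sirt3 and Sirt4 in WT saline.

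Shares of the summed FPKM of the 7 genes do not depend on a scaling factor applied to a library. The sum itself was 156.4 ± 3.99 FPKM in Sting-/- DOX, 136.2 ± 2.78 FPKM in WT DOX and 148.6 ± 5.49 FPKM in WT saline (SD, n = 3 each). The nuclear sirtuins held 31.0%, 32.7% and 33.1% of the sum in Sting-/- DOX, 18.3%, 18.9% and 17.9% in WT DOX and 11.7%, 11.96% and 12.5% in WT saline. The mitochondrial sirtuins held 16.6%, 17.2% and 18.1% in Sting-/- DOX, 37.7%, 36.5% and 39.0% in WT DOX and 44.4%, 43.7% and 43.3% in WT saline. The nuclear share was highest and the mitochondrial share lowest in Sting-/- DOX, and WT DOX stood between the other groups, without overlap, in both. The cytosolic share, that of Sirt2, was 50.4% ± 1.77 in Sting-/- DOX, 43.9% ± 0.726 in WT DOX and 44.1% ± 0.217 in WT saline (SD, n = 3 each), and here WT DOX and WT saline overlapped.

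Sirt5 and Sirt7 had the lowest and highest log2 fold changes of the family in Sting-/- DOX against WT DOX (-1.50 and 1.25). The ratio of Sirt5 to Sirt7 restates those values for 1 pair and is not separate evidence for the shares. It was 0.247, 0.249 and 0.258 in Sting-/- DOX, 1.91, 1.67 and 2.199 in WT DOX and 4.26, 3.96 and 3.53 in WT saline. Sirt5 was the more abundant transcript of the pair in every wild-type library and the less abundant one in every Sting-/- DOX library. The ratio of Sirt3 to Sirt1 was 1.71 ± 0.252 in Sting-/- DOX, 4.01 ± 0.308 in WT DOX and 5.43 ± 0.300 in WT saline (SD, n = 3 each).

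**Figure D3:**
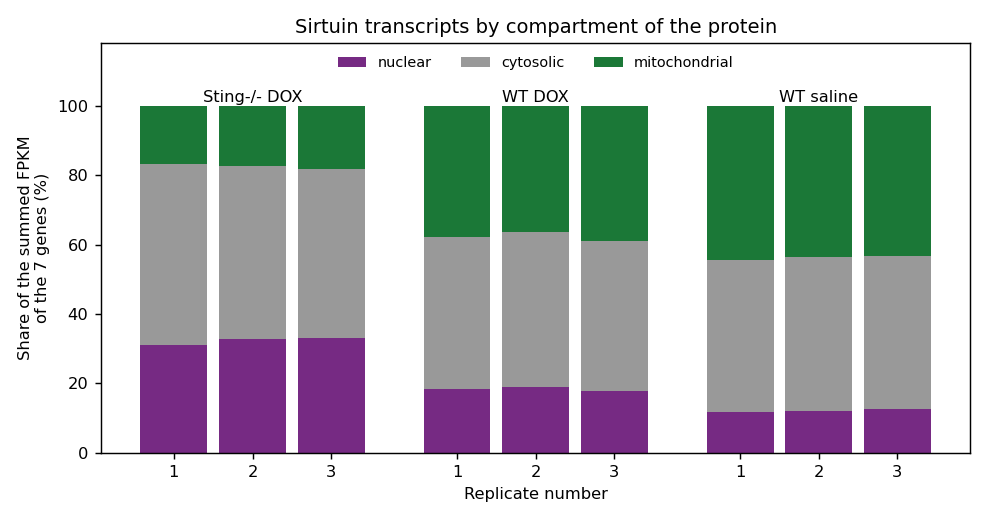
Share (percent) of the summed FPKM of the 7 sirtuins held by nuclear (Sirt1, Sirt6, Sirt7), cytosolic (Sirt2) and mitochondrial (Sirt3, Sirt4, Sirt5) members in each library, from Sting-/- DOX to WT saline. The nuclear share is 31.0% to 33.1% in Sting-/- DOX and 11.7% to 12.5% in WT saline.

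Markers of cardiac cell types also differed between the groups, but not all in the order of these shares. Of the 16 cardiomyocyte markers, 15 were lower and 1, the atrial light chain Myl7, was higher in Sting-/- DOX than in WT DOX, with a median log2 fold change of -2.02. In that comparison 29.7% of all tested genes were lower and 54.1% higher, which also applies to the marker counts below. Between WT DOX and WT saline 11 of the 16 cardiomyocyte markers were lower and 3 higher in WT DOX, with a median of -0.58. Of all tested genes, 21.5% were lower and 45.3% higher there. All 12 endothelial markers were higher in Sting-/- DOX than in WT DOX, and they summed to 1750 to 1884 FPKM in Sting-/- DOX, 414.8 to 421.4 FPKM in WT DOX and 413.9 to 423.7 FPKM in WT saline. Of the 9 fibroblast markers, 8 were higher and none lower in Sting-/- DOX than in WT DOX. With median-ratio scaling or quantile normalization 8 were higher and 1 lower. The 9 fibroblast markers summed to 7779 to 8259 FPKM in Sting-/- DOX, 1220 to 1264 FPKM in WT DOX and 586.9 to 597.9 FPKM in WT saline. The 8 macrophage and monocyte markers, 6 of them higher and 2, Ccr2 and Mrc1, lower in Sting-/- DOX than in WT DOX (4 and 2 with median-ratio scaling), summed to 2168 to 2252 FPKM in Sting-/- DOX, 1182 to 1302 FPKM in WT DOX and 329.1 to 373.5 FPKM in WT saline, and no marker of these 4 lists was at 0 in any library. The summed levels of these 3 lists of non-muscle cells were highest in Sting-/- DOX. The 7 smooth muscle and pericyte markers summed to 964.0 to 1030 FPKM in Sting-/- DOX, 250.8 to 263.4 FPKM in WT DOX and 295.3 to 340.3 FPKM in WT saline. Of these, 6 were higher and none lower in Sting-/- DOX than in WT DOX. Against WT saline 5 were higher and 2 lower (63.0% and 25.9% of all tested genes). Rgs5 averaged 125.0, 85.7 and 159.6 FPKM in Sting-/- DOX, WT DOX and WT saline, and Kcnj8 12.1, 13.3 and 18.2 FPKM, so both were highest in saline. The 6 mesothelial markers summed to 94.7 to 98.0 FPKM in Sting-/- DOX, 5.77 to 7.69 FPKM in WT DOX and 4.06 to 6.25 FPKM in WT saline. The sum of the 5 neutrophil markers was instead highest in WT DOX, at 82.2 to 97.5 FPKM in Sting-/- DOX, 209.1 to 276.2 FPKM in WT DOX and 6.31 to 7.02 FPKM in WT saline. Of the 5, 4 were lower and none higher in Sting-/- DOX than in WT DOX, where the ranges of Retnlg overlapped. With median-ratio scaling all 5 were lower. None of the markers of these 3 lists was at 0 either. The 4 erythroid markers, of which 3 were tested and all 3 were higher in Sting-/- DOX than in WT DOX, summed to 6199 to 6974 FPKM in Sting-/- DOX, 1108 to 1209 FPKM in WT DOX and 1729 to 1855 FPKM in WT saline. Among them Slc4a1 was at 0 in 1 library of WT DOX and in 1 of WT saline. The part of these differences in the sirtuin values was not tested.

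The mitochondrial sirtuins were also set against the cardiomyocyte markers of the same library. The log2(FPKM + 1) of Sirt3 minus the median of those markers was -4.35 ± 0.129 in Sting-/- DOX, -6.38 ± 0.116 in WT DOX and -6.40 ± 0.085 in WT saline (SD, n = 3 each). For Sirt5 this difference was -4.82 ± 0.085 in Sting-/- DOX, -6.05 ± 0.115 in WT DOX and -6.39 ± 0.068 in WT saline (SD, n = 3 each). For Sirt4 it was -4.78 ± 0.178 in Sting-/- DOX, -7.40 ± 0.126 in WT DOX and -7.82 ± 0.088 in WT saline (SD, n = 3 each). All 3 were nearest to this median in Sting-/- DOX, where it was lowest. It is a median of levels, so the genes at its middle differ between groups, and it need not move as single markers do. The log2 fold changes of the markers in Sting-/- DOX against WT DOX ran from -3.14 to 1.19, with a median of -2.02. Beside these, Sirt3 was at -0.70, Sirt4 at -0.11 and Sirt5 at -1.50. Between WT DOX and WT saline the Sirt3 values differed by less than the spread between libraries, and those of Sirt4 and Sirt5 by more.

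Because FPKM is relative to each library's total, the scaling bears on small differences. The 10 most abundant genes held 8.09% to 8.44% of the summed FPKM in Sting-/- DOX, 11.5% to 12.05% in WT DOX and 16.5% to 16.6% in WT saline. Median-ratio scaling moved the median log2 fold change of all tested genes to 0.04 for Sting-/- DOX against WT DOX, to 0.10 for Sting-/- DOX against WT saline and to -0.05 for WT DOX against WT saline, and quantile normalization moved it to 0.02, 0.03 and -0.10 for the same comparisons. For Sting-/- DOX against WT DOX, 6760 genes were higher and 3708 lower as deposited, 5256 and 4840 with median-ratio scaling, and 5235 and 4953 with quantile normalization. For Sting-/- DOX against WT saline the counts were 7869 and 3228 as deposited, 5860 and 4867, and 5487 and 5205. For WT DOX against WT saline they were 5651 and 2680 as deposited, 3840 and 4679, and 3461 and 5363. Sirt7, Sirt6 and Sirt3 kept their direction and call in all 3 comparisons under both, as did Sirt5. In Sting-/- DOX against WT DOX, these 2 scalings gave 1.02 and 1.09 for Sirt7 and -1.71 and -1.76 for Sirt5. Calls of Sirt1, Sirt2 and Sirt4 changed in at least 1 comparison. Sirt1 passed as lower in WT DOX than in WT saline at -0.28 and -0.35, and Sirt4 at -0.34 and -0.36. For Sting-/- DOX against WT DOX, Sirt4 passed as lower at -0.32 and -0.39.

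**Figure D4:**
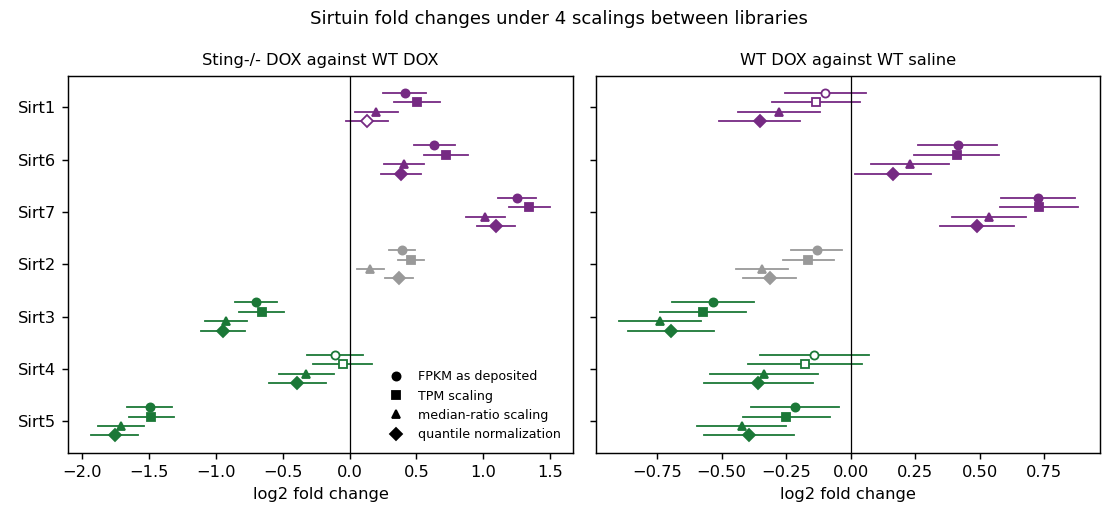
Log2 fold change of each sirtuin under 4 scalings (FPKM as deposited, TPM, median-ratio and quantile) for Sting-/- DOX against WT DOX and for WT DOX against WT saline. Over the 4 scalings Sirt7 lies, for Sting-/- DOX against WT DOX, between 1.02 (median-ratio) and 1.35 (TPM), and Sirt4 between -0.39 (quantile) and -0.05 (TPM).

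Regulators and targets of SIRT1 moved in both directions. Of 15 such genes, 10 were higher and 4 lower in Sting-/- DOX than in WT DOX, with a median of 0.40 beside 0.25 for all tested genes, of which 54.1% were higher and 29.7% lower, and 8 and 5 with median-ratio scaling or quantile normalization. Compared with WT saline, WT DOX had 8 higher and 6 lower as deposited (45.3% and 21.5% of all tested genes), and 4 and 7 with median-ratio scaling. Ppargc1a, the gene of the mitochondrial biogenesis coactivator PGC-1alpha that SIRT1 deacetylates, averaged 1.31 ± 0.093 FPKM in Sting-/- DOX, 16.1 ± 0.698 FPKM in WT DOX and 25.5 ± 0.186 FPKM in WT saline (SD, n = 3 each). Its log2 fold change was -2.89 for Sting-/- DOX against WT DOX (limma adjusted p = 3.96e-13), and Ppara, a nuclear receptor of fatty acid oxidation, was at -1.96 (limma adjusted p = 2.21e-11). In the other direction, the clock gene Bmal1 averaged 18.1 ± 0.980 FPKM in Sting-/- DOX, 1.91 ± 0.091 FPKM in WT DOX and 1.503 ± 0.327 FPKM in WT saline, a log2 fold change of 2.72 for Sting-/- DOX against WT DOX (limma adjusted p = 4.17e-11). Foxo1 (1.16) and Rela (1.10) were also higher there. Trp53, the gene of p53, was higher by 0.78 in WT DOX than in WT saline (limma adjusted p = 1.44e-07). Of the direct modulators of SIRT1, Rps19bp1, an activator, was higher by 0.71 in WT DOX than in WT saline (limma adjusted p = 4.44e-06) and averaged 16.8 ± 1.80 FPKM in Sting-/- DOX and 17.0 ± 1.09 FPKM in WT DOX. Ccar2, an inhibitor, averaged 13.7 ± 0.396 FPKM in Sting-/- DOX, 9.22 ± 0.265 FPKM in WT DOX and 8.17 ± 0.732 FPKM in WT saline.

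Partners and targets of SIRT6 and SIRT7, which include nucleolar and stress-response genes, came next. Set against WT saline, WT DOX had 11 of 13 higher and 1 lower, with a median of 0.30 beside 0.13 for all tested genes, of which 45.3% were higher and 21.5% lower, and 6 higher and 1 lower with median-ratio scaling or quantile normalization. Myc, whose target genes SIRT6 represses, was higher by 2.49 (limma adjusted p = 2.48e-10), and Npm1, the nucleolar chaperone nucleophosmin, by 1.13 (limma adjusted p = 2.03e-10). In Sting-/- DOX against WT DOX 6 were higher and 6 lower, beside 54.1% and 29.7% of all tested genes. Among them Myc was lower (-0.88, limma adjusted p = 1.05e-06) and Gata4, a cardiac transcription factor, was at -1.59 (limma adjusted p = 2.54e-11). Gabpb1, a subunit of the GABP factor that SIRT7 deacetylates, was higher by 0.98 (limma adjusted p = 1.75e-08), and Igf1 by 1.93 (limma adjusted p = 6.39e-11).

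Partners and substrates of SIRT2 were mixed. Of 13 genes, 7 were higher and 4 lower in Sting-/- DOX than in WT DOX, with a median of 0.21 beside 0.25 for all tested genes (54.1% higher, 29.7% lower), and 5 and 5 with median-ratio scaling. Stk11, the kinase LKB1, averaged 73.4 ± 1.75 FPKM in Sting-/- DOX, 45.3 ± 1.24 FPKM in WT DOX and 45.1 ± 1.45 FPKM in WT saline, a log2 fold change of 0.68 for Sting-/- DOX against WT DOX (limma adjusted p = 9.78e-09). The tubulin gene Tuba1b was at -1.17 (limma adjusted p = 6.24e-11) in that comparison and at 1.68 (limma adjusted p = 1.32e-11) in WT DOX against WT saline. Pgam2, a muscle glycolytic enzyme, was at -1.37 in Sting-/- DOX against WT DOX and at -0.50 in WT DOX against WT saline. G6pdx, the entry enzyme of the pentose phosphate pathway, was higher by 1.64 in WT DOX than in WT saline (limma adjusted p = 7.49e-09).

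Known substrates of the mitochondrial sirtuins were lower almost throughout. Of the 22 listed, 21 were tested, since Cps1, a liver enzyme that SIRT5 acts on, stayed between 0 and 0.05 FPKM. Of these, 19 were lower and 2 higher in Sting-/- DOX than in WT DOX, with a median of -2.52 (29.7% and 54.1% of all tested genes, median 0.25), and 20 were lower and none higher with median-ratio scaling. As deposited, 20 were lower and none higher in WT DOX than in WT saline, with a median of -0.48 (21.5% and 45.3% of all tested genes, median 0.13). Idh2, the NADPH-producing isocitrate dehydrogenase that SIRT3 deacetylates, averaged 110.0 ± 5.69 FPKM in Sting-/- DOX, 646.7 ± 14.1 FPKM in WT DOX and 990.5 ± 47.2 FPKM in WT saline (SD, n = 3 each). Acss1, the mitochondrial acetyl-CoA synthetase and a SIRT3 substrate, had the largest change in Sting-/- DOX against WT DOX at -3.13 (limma adjusted p = 4.7e-13), followed by Got2 at -2.76 and Acadvl at -2.72. In WT DOX against WT saline the largest were Ldhb at -0.79, Idh2 at -0.61 and Sdha at -0.59. Against this, Sirt3 was at -0.70 and Sirt5 at -1.50 in Sting-/- DOX against WT DOX, above the median of the substrates.

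Among the exceptions, Glud1, the glutamate dehydrogenase that SIRT4 ADP-ribosylates, averaged 61.7 ± 2.06 FPKM in Sting-/- DOX, 56.5 ± 0.807 FPKM in WT DOX and 55.7 ± 1.61 FPKM in WT saline, with a log2 fold change of 0.13 for Sting-/- DOX against WT DOX (limma adjusted p = 0.0112) that turned to -0.12 with median-ratio scaling.

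**Figure D5:**
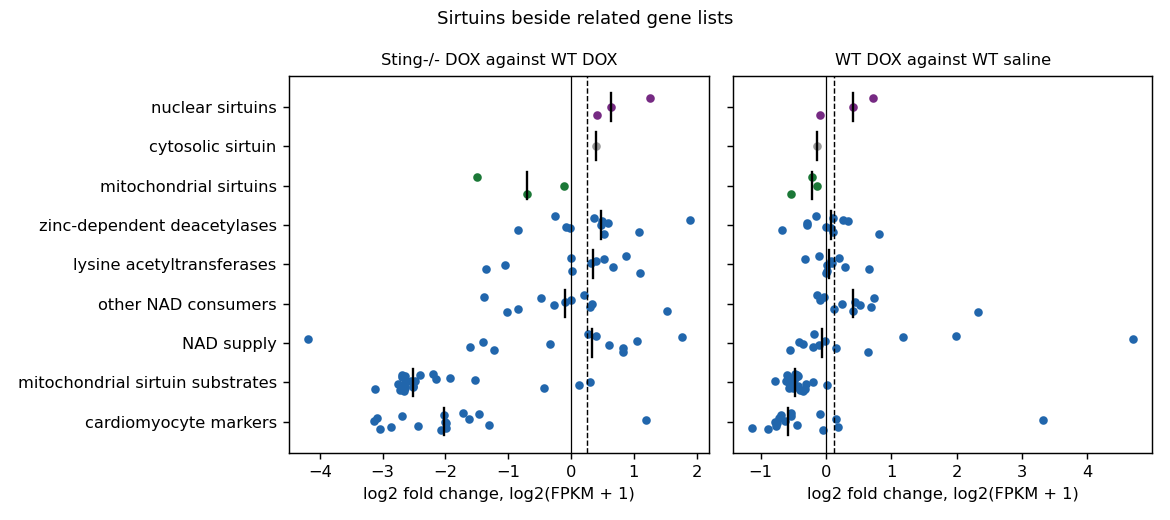
Log2 fold changes of the sirtuins and of related gene lists, 1 point per tested gene, with the list median as a black bar and the median of all tested genes as a dashed line. In Sting-/- DOX against WT DOX, substrates of mitochondrial sirtuins have a median of -2.52 and cardiomyocyte markers have a median of -2.02. The other related lists, sirtuins aside, have medians from -0.09 to 0.47 there.

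The zinc-dependent histone deacetylases remove the same acetyl mark without using NAD. Of 11, 7 were higher and 2 lower in Sting-/- DOX than in WT DOX, with a median of 0.47 beside 0.25 for all tested genes (54.1% higher, 29.7% lower), and 6 and 4 with median-ratio scaling. WT DOX had 3 higher and 3 lower than WT saline (45.3% and 21.5% of all tested genes), and 1 and 6 with median-ratio scaling. Hdac7, a class IIa member with a known role in endothelial cells, averaged 69.0 ± 2.76 FPKM in Sting-/- DOX, 17.9 ± 0.468 FPKM in WT DOX and 14.8 ± 0.344 FPKM in WT saline. Its log2 fold change of 1.89 in Sting-/- DOX against WT DOX (limma adjusted p = 2.51e-12) stood beside 1.25 for Sirt7. Hdac11, which removes long-chain acyl groups, was the member that moved most in the other direction, at -0.84 in Sting-/- DOX against WT DOX (limma adjusted p = 6.29e-07) and -0.67 in WT DOX against WT saline (limma adjusted p = 1.11e-05). Hdac1 was higher in WT DOX than in WT saline by 0.81 (limma adjusted p = 6.72e-08).

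Among 10 lysine acetyltransferases, which write the marks that sirtuins remove, 6 were higher and 2 lower in Sting-/- DOX than in WT DOX, with a median of 0.36 beside 0.25 for all tested genes (54.1% higher, 29.7% lower), and 5 and 4 with median-ratio scaling. Crebbp was higher by 1.10 (limma adjusted p = 2.11e-08) and Kat8 by 0.88 (limma adjusted p = 1.02e-07). Hat1 was lower at -1.36 (limma adjusted p = 5.14e-10) and Kat2b at -1.05 (limma adjusted p = 4.96e-09). WT DOX had 3 higher and 1 lower than WT saline (45.3% and 21.5% of all tested genes), with Hat1 the largest at 0.65 (limma adjusted p = 1.18e-06), and with median-ratio scaling 1 was higher and 4 lower.

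Other enzymes compete with sirtuins for NAD. Of 12 listed, 11 were tested; Sarm1 stayed at or below 0.12 FPKM. In Sting-/- DOX against WT DOX 4 were higher and 4 lower, with a median of -0.09 beside 0.25 for all tested genes (54.1% higher, 29.7% lower), and 1 and 7 with median-ratio scaling. Cd38, the NAD glycohydrolase named in the series title, averaged 26.99 ± 1.15 FPKM in Sting-/- DOX, 8.74 ± 0.386 FPKM in WT DOX and 6.32 ± 0.497 FPKM in WT saline, a log2 fold change of 1.52 for Sting-/- DOX against WT DOX (limma adjusted p = 2.91e-10). Its paralog Bst1 was at -1.02 in that comparison (limma adjusted p = 5.04e-06) and at 2.33 in WT DOX against WT saline (limma adjusted p = 6.92e-09). WT DOX had 8 of 11 higher and 1 lower than WT saline, beside 45.3% and 21.5% of all tested genes, and 6 and 3 with median-ratio scaling.

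The list of NAD supply had 13 genes. It also holds genes that do not make NAD, such as Nnmt and the NAD kinases Nadk and Nadk2. Of the 13, 12 were tested, and Qprt stayed at or below 0.21 FPKM. In Sting-/- DOX against WT DOX 7 were higher and 5 lower, with a median of 0.33 beside 0.25 for all tested genes (54.1% higher, 29.7% lower), and 5 and 5 with median-ratio scaling. Nampt, the rate-limiting enzyme of the salvage route that recycles the nicotinamide released by sirtuins, averaged 18.4 ± 0.386 FPKM in Sting-/- DOX, 58.8 ± 9.59 FPKM in WT DOX and 67.3 ± 1.48 FPKM in WT saline, a log2 fold change of -1.61 for Sting-/- DOX against WT DOX (limma adjusted p = 3.68e-09). The muscle nicotinamide riboside kinase Nmrk2 averaged 14.9 ± 0.619 FPKM in Sting-/- DOX, 289.2 ± 40.0 FPKM in WT DOX and 10.1 ± 0.493 FPKM in WT saline. It was at -4.18 in Sting-/- DOX against WT DOX (limma adjusted p = 4.64e-13) and at 4.71 in WT DOX against WT saline (limma adjusted p = 1.12e-12). Nnmt, which methylates nicotinamide and so removes it from salvage, was higher by 1.76 in Sting-/- DOX than in WT DOX (limma adjusted p = 7.86e-09).

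Several sirtuin genes lie close to a neighbour. In the RefSeq gene table, Sirt3 and the proteasome subunit gene Psmd13 start 84 bases apart and run in opposite directions. Psmd13 averaged 32.3 ± 1.39 FPKM in Sting-/- DOX, 56.1 ± 1.07 FPKM in WT DOX and 40.8 ± 3.00 FPKM in WT saline. In WT DOX against WT saline Psmd13 was higher at 0.45 (limma adjusted p = 1.57e-05) where Sirt3 was lower at -0.53, whereas both were lower in Sting-/- DOX than in WT DOX. Ric8a, whose end overlaps that of Sirt3, was higher by 0.82 in Sting-/- DOX than in WT DOX (limma adjusted p = 2.74e-07) and by 0.62 in WT DOX than in WT saline (limma adjusted p = 8.02e-06).

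In the GENCODE M21 annotation Sirt3 shares 418 of its 5973 exon bases with Ric8a and 342 with Psmd13, all on the opposite strand, and Sirt7 shares 124 of 5148 with Mafg on the same strand. Whether the libraries kept strand is not given in the sources used here, so reads in these stretches cannot be told apart. Of the other close pairs, Sirt6 and Ankrd24 start 28 bases apart in opposite directions. Ankrd24 was higher in Sting-/- DOX than in WT DOX by 0.36 (limma adjusted p = 0.00814), which did not pass with median-ratio scaling (0.16). Sirt2 and Nfkbib, the gene of an NF-kB inhibitor, start 107 bases apart. Nfkbib averaged 21.8 ± 0.694 FPKM in Sting-/- DOX and 22.6 ± 1.09 FPKM in WT DOX, a log2 difference of -0.05 (limma adjusted p = 0.607) where Sirt2 was higher by 0.39. Mafg, whose gene lies 102 bases from the start of Sirt7, was higher in Sting-/- DOX than in WT DOX by 0.34 (limma adjusted p = 6.59e-05), against 1.25 for Sirt7.

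Farther neighbours moved in either direction too. Pcyt2, 423 bases from the end of Sirt7, was higher in Sting-/- DOX than in WT DOX by 0.75 (limma adjusted p = 1.16e-07) and at -0.45 in WT DOX against WT saline (limma adjusted p = 2.51e-05), where Sirt7 was higher. Rinl, 208 bases from the end of Sirt2, was higher by 0.63 in Sting-/- DOX than in WT DOX (limma adjusted p = 0.000119) and by 1.12 in WT DOX than in WT saline (limma adjusted p = 1.44e-06). Around Sirt5, in Sting-/- DOX against WT DOX, Gfod1 was at -0.38 (limma adjusted p = 0.00034) and Nol7 at -0.43 (limma adjusted p = 1.04e-05), beside -1.50 for Sirt5. Pxn, next to Sirt4, was higher by 1.26 there (limma adjusted p = 1.72e-10) and Tle6, next to Sirt6, by 0.94 (limma adjusted p = 7.13e-05). Next to Sirt1, Herc4 was at -0.23 (limma adjusted p = 0.00684) and Dnajc12 at -1.005 (limma adjusted p = 3.11e-06), while Sirt1 was higher. Pla2g1b, on the other side of Sirt4, was not analysed here.

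The genes with the profile most like each sirtuin were found by the root mean square difference of log2(FPKM + 1), each gene centred on its mean, over the 9 libraries. For Sirt7, whose own values spread by 0.820 around its mean, the nearest were Abi3 (0.064), Stk19 (0.066) and Ahnak2 (0.076). For Sirt5, with a spread of 0.766, they were Ndufc2 (0.063), Nt5dc3 (0.068) and Mrpl16 (0.075), of which Ndufc2 encodes a subunit of respiratory complex I and Mrpl16 a mitochondrial ribosomal protein. For Sirt3, with a spread of 0.510, they were Znrd1as (0.055), Kif13a (0.068) and Tmc7 (0.069). For Sirt6, with a spread of 0.436, they were Mbp (0.049), Rbms1 (0.062) and Rlim (0.064). The 1 added to FPKM narrows the differences of genes with low levels, so such matches hold on this scale only. Tmc7 averaged 0.45 FPKM in Sting-/- DOX and 2.29 FPKM in WT saline. In the same groups Ahnak2 averaged 7.7 and 1.21 FPKM, and Mbp 3.25 and 1.12 FPKM. The profiles of Sirt3 and Sirt5 differed from each other by 0.350, and those of Sirt7 and Sirt6 by 0.394.

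Sirt1, Sirt2 and Sirt4 had the smallest spreads around their means, at 0.188, 0.169 and 0.154. Sirt1 was nearest to Mterf3 (0.044), Zfp39 (0.044) and Zfp512 (0.053), Sirt2 to Man2a2 (0.039), Bloc1s1 (0.041) and Mrpl24 (0.049), and Sirt4 to Cstf2t (0.070), Chrna10 (0.072) and Tollip (0.072). Sirt1 and Sirt2 were the closest pair of sirtuins, with a difference of 0.060.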

How the data were processed

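Bulk RNA-seq of mouse heart was read from 9 deposited files, 1 per library, in 3 groups of 3 taken from the sample titles. Each file holds an FPKM value per gene ID, printed by the authors to 2 decimals, for the same 16873 genes. Per the labels' protocols, total RNA was prepared into libraries with an MGI kit. The submitters' processing notes list the build GRCm39 and the tools RSEM 1.2.12, HISAT2 2.0.4 and Bowtie2 2.2.5 without their roles. Since FPKM values are not counts, count models were not applied. Depth was estimated from the steps between low values of 1994 single-transcript genes. Between 40.9% and 50.3% of those values came within 0.1 of a whole fragment, so the depth is approximate and counts were not recovered.

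IDs were matched to symbols with a RefSeq gene table (GRCm38.p6; 16825 matched, 48 did not), which was used for names, gene neighbours and promoter sequence, never to place the files' values. Exon overlap came from GENCODE M21. The main test was limma 3.58.1 in R 4.3.3 on log2(FPKM + 1) (trended variance prior, all 9 libraries in 1 fit, 6 residual degrees of freedom), for 12485 genes whose mean over all libraries reached 1 FPKM. Tests were two-sided with Benjamini-Hochberg adjustment over all 12485 genes and a threshold of 0.05. The procedure was tested on simulated data. Single values also had an exact permutation test over libraries. Python 3.11.15 with pandas 2.3.3, numpy 2.4.6 and matplotlib 3.10.9 handled joins and figures.

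Members, gene lists and motifs were chosen with earlier results of these data known. Of each related list, up to 3 called members with the largest change in the majority direction and up to 2 in the other are named, with members whose role the order of the text needs. The nearest gene on either side and the 3 nearest profiles are named for each sirtuin. Alternatives were 3 other scalings, 2 pseudocounts, 2 filters, 2 variance models, a fit of only the 2 groups compared, a replicate block and leaving out each library. A promoter stretch and a member of a related list are not reported here.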

Additional observations from a re-analysis of the deposited data

How the results depend on the processing

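Of the 21 fold changes of the 7 sirtuins, 12 kept their direction and call under all 20 alternatives, namely those of Sirt3, Sirt6 and Sirt7 in the 3 comparisons, of Sirt5 in both with Sting-/- DOX, and of Sirt2 in Sting-/- DOX against WT DOX. The number of sirtuins lower in WT DOX than in WT saline was 3 as deposited and 5 with median-ratio scaling or quantile normalization, and it ranged from 1 (without WT saline replicate 1) to 3 when a library was left out. The number higher in Sting-/- DOX than in WT saline was 4 as deposited and 2 with median-ratio scaling or quantile normalization. In that comparison Sirt1 reversed to -0.077 (limma adjusted p = 0.333) with median-ratio scaling and to -0.22 (limma adjusted p = 0.012) with quantile normalization, and Sirt2 reversed to -0.19 (limma adjusted p = 0.00206) with median-ratio scaling. The scalings differ by construction in how they treat the shift of all genes. Among the 12485 tested genes, those called lower in WT DOX than in WT saline rose from 2680 to 4679 (median-ratio) and 5363 (quantile). Those called higher in Sting-/- DOX than in WT saline fell from 7869 to 5860 (median-ratio) and 5487 (quantile). Both changes in the sirtuin counts thus went the same way as those of all genes and do not set the family apart.

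Deviations of same-numbered libraries of different groups had small correlations of -0.03 to 0.10 over 9 pairs, against -0.07 to 0.04 over the 18 others. The same-numbered pairs of WT saline and WT DOX were all positive, at 0.04, 0.10 and 0.02 for replicates 1, 2 and 3. With a replicate block, 2 sirtuins were higher and 3 lower in WT DOX against WT saline, 4 and 2 in Sting-/- DOX against WT DOX, and 4 and 3 in Sting-/- DOX against WT saline, as without it; 5607 and 2640 of all genes were then called in the first of these.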
